A study of Mus musculus with 4 samples.

Results

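Serine synthesis and folate one-carbon metabolism were followed through 10 genes in naive mouse embryonic stem cells with different levels of the long noncoding RNA Lncenc1. The 10 enzymes were taken by name from the 19840 genes of the deposited comparison and matched by Ensembl identifier. All 10 had a row, and all 10 were among the 14070 genes with an adjusted p, the lowest mean of which was 8.36 normalized reads. Naive stem cells (nESCs) of the lines E14TG2a and R1 were grown in 2i/LIF, which combines 2 kinase inhibitors with the cytokine LIF and keeps them in the ground state. A lentiviral hairpin against Lncenc1 (shLincenc1, 2 libraries) or a control hairpin (shCtrl, 2 libraries) was introduced, and both groups went through 2 days of puromycin selection. The protocols speak of 2 hairpins per gene, and the labels tie no library to a hairpin, a line or a separate culture, so the spread behind the p-values may be technical.

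The deposited comparison does not name its numerator. Lncenc1 itself had 2126 and 2121 normalized reads in one group, called Lncenc1-low here (libraries L1 and L2), against 6400 and 7250 normalized reads in the other, called Lncenc1-high (libraries H1 and H2). The authors' deposited table gives it a log2 fold change of 1.68 ± 0.19 (SE; DESeq2 adjusted p = 2.67e-16). Every fold change below likewise sets Lncenc1-high over Lncenc1-low, so a positive value means a lower level in the Lncenc1-low group. The Lncenc1-low libraries are the shLincenc1 ones only on the premise that the hairpin worked, and groups named by Lncenc1 cannot check the knockdown. Read counts of single libraries were recovered from the deposited means, and summed to 11021293 in L1, 10453931 in L2, 25967428 in H1 and 10794658 in H2. All 8 stem cell markers examined were abundant, with summed levels of 68416 and 65738 normalized reads in L1 and L2 and of 81425 and 77835 in H1 and H2. The log2 fold change was positive for all 8. In 7 of them both low libraries lay below both high ones, which held for 20.6% of genes tested. At a DESeq2 adjusted p under 0.05, 0 of the 8 were called, and 2 had an unadjusted DESeq2 p under 0.05. The 6 fibroblast markers, which feeder cells would bring, summed to 392 and 308 normalized reads in L1 and L2 and to 229 and 194 in H1 and H2. Most of this sum was Fbn1 (324 and 174 against 140 and 110). Fbn1 and Thy1 were higher in both low libraries, and the groups overlapped for Col1a1, Col1a2, Col3a1 and Pdgfrb. The 5 differentiation markers summed to 41.9 and 69.2 against 101 and 7.53, of which Pax6 gave 27.1 and 40.8 against 80.1 and 3.76. Col3a1 was at 0 in L2 and H2, Fgf5 in L1, L2 and H2, and Gata6 and Sox1 in H2. The part of these differences in the results below was not tested. In bulk RNA, fewer cells of a type and less RNA per cell cannot be told apart.

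Cells make serine from 3-phosphoglycerate, an intermediate of glycolysis, in a chain of steps catalysed by Phgdh, Psat1 and Psph. Serine hydroxymethyltransferase then moves a carbon from serine to folate, giving glycine, through Shmt2 in mitochondria or Shmt1 in the cytosol. In mitochondria Mthfd2 or Mthfd2l and then Mthfd1l turn this unit into formate, which leaves for the cytosol, where Mthfd1 puts it back on folate for the synthesis of purines and thymidylate and for methionine. Aldh1l2 instead oxidises the mitochondrial unit to carbon dioxide and yields NADPH. Rapidly dividing cells draw heavily on this cycle, and mouse embryonic stem cells are known to feed it also from threonine, through Tdh. The transcription factors Atf4 and Myc are known activators of several of its genes.

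Psat1, Shmt2 and Mthfd2 were picked for display because their DESeq2 adjusted p was under 0.05 in the authors' deposited table. The 150 bases before an annotated start of each are shown, with those of Shmt1, the cytosolic partner of Shmt2, for comparison. The sequences are from RefSeq, build GRCm38.p6, each 5′ to 3′ on the gene's own strand, and capitals mark the motif CCAAT or its reverse complement ATTGG. The Mthfd2 window is chr6:83317605-83317754, that of Shmt2 chr10:127522445-127522594, that of Psat1 chr19:15925060-15925209 and that of Shmt1 chr11:60811266-60811415, all on the minus strand. Psat1 has a second annotated start, whose window (chr19:15924623-15924772, minus strand) holds no CCAAT and is not printed.
Mthfd2: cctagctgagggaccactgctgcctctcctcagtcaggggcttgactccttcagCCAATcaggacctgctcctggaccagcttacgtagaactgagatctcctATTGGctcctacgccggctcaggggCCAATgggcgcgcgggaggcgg
Psat1: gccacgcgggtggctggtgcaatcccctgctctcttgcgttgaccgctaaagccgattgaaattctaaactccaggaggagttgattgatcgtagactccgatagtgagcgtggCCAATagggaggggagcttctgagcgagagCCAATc
Shmt2: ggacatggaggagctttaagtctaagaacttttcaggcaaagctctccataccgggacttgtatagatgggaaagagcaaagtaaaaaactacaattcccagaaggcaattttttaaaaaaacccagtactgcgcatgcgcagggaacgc
Shmt1: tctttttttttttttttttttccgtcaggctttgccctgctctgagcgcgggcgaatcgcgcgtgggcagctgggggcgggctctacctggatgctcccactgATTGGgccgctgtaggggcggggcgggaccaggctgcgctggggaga

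The motif TGATGNAA, the core of the element through which Atf4 is known to act, was searched on both strands of the promoter windows, which run from 250 bases before to 50 bases after a start. None of the 10 windows of the 9 genes found in the table held these letters, against 3.97% of all 32851 windows, and Aldh1l2 had no window. At so small a share, their absence from 10 windows says little. CCAAT, the letters bound by the factor NF-Y, was chosen after the sequences were seen. Searched on both strands in the 150 bases before the start, it was present in Mthfd2 (3 times), Psat1 and Psph (2 times each), and Phgdh, Shmt1 and Mthfd1 (1 time each). By window, 6 of the 10 windows of these 9 genes held it, against 24.5% of all windows of that length, and the second Psat1 window did not. Shmt2, Mthfd1l and Mthfd2l held none. Any link between these letters and the levels of the genes was not tested. With TGATGNAA absent, no match of one motif overlapped the other.

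Mthfd2, Shmt2 and Psat1 were lower where Lncenc1 was low, at 44.2%, 55.3% and 56.4% of the mean level of the Lncenc1-high group. They were the 3 of the 10 enzymes called at an adjusted p under 0.05 in the authors' deposited table, where 0.505% of all genes tested were called in that direction, 1.02% in the other and 1.53% in either. None of the 10 was called higher in the Lncenc1-low group. In 7 of the 10 genes, the whole serine synthesis branch and all mitochondrial enzymes but Mthfd2l, both Lncenc1-low libraries lay below both Lncenc1-high libraries, which held for 20.6% of genes tested. In 1, Mthfd1, both lay above, as in 20.7% of genes tested, and 41.3% of genes tested had groups without overlap in either direction. An unadjusted p under 0.05 was reached by 5 of the 10, all lower in the Lncenc1-low group, against 8.82% of genes tested in either direction and 3.54% in that one. The log2 fold change was positive for 7 of the 10, against 49.4% of genes tested. The median log2 fold change of the 10 was 0.55 in the authors' deposited table, and that of all genes tested was -0.01. The plot of levels by library shows these 3 patterns side by side.

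**Figure D1:**
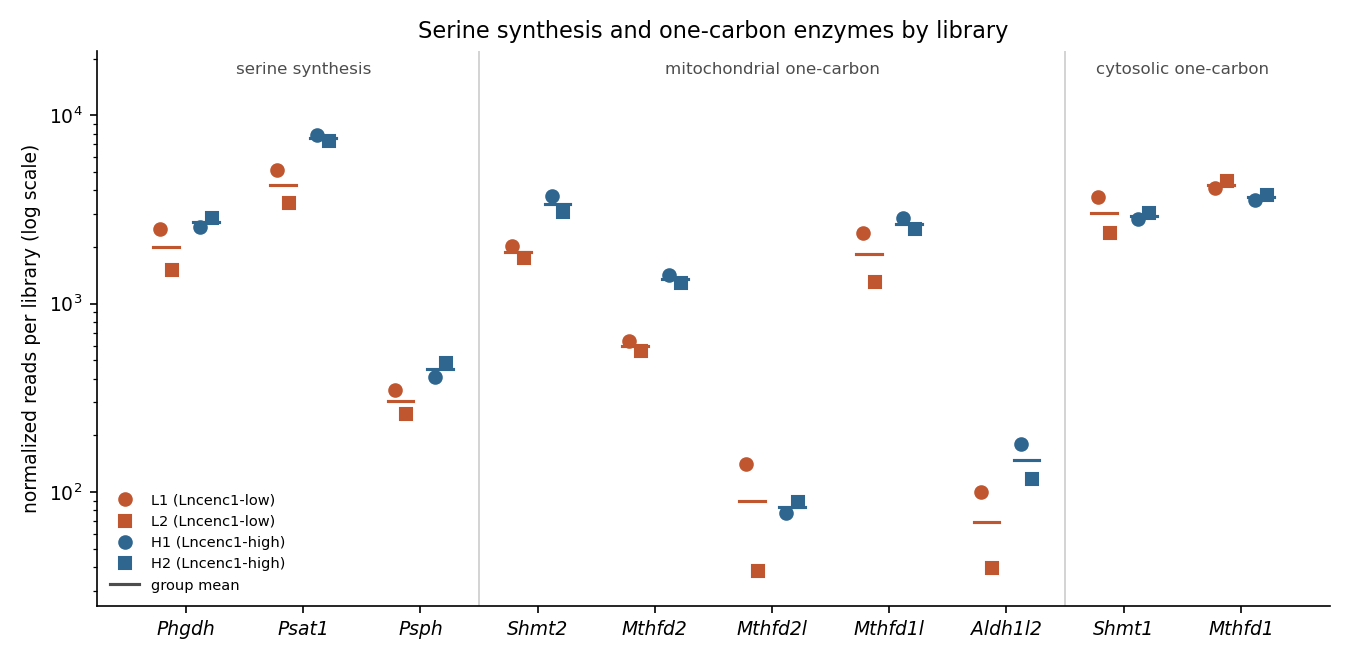
Normalized reads (log axis) of the 10 enzymes in each library, ordered by role, with Lncenc1-low libraries in orange left of Lncenc1-high libraries in blue and short lines for the group means (n = 2 each). Both low libraries lie below both high ones in 7 genes and above them in Mthfd1, while the groups overlap for Mthfd2l and Shmt1. Of all genes tested, 41.3% had groups without overlap. L2 (orange squares) is the lowest of the 4 libraries in 9 of the 10 genes.

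Serine synthesis begins with Phgdh, phosphoglycerate dehydrogenase, which commits 3-phosphoglycerate to serine. Phgdh had 2481 and 1504 normalized reads in L1 and L2, against 2567 and 2851 in H1 and H2. The groups did not overlap, but L1 lay just under H1 and the gap rested on L2. The authors' deposited table gives Phgdh a log2 fold change of 0.44 ± 0.25 (SE; DESeq2 adjusted p = 0.655), with a 95% interval from -0.04 to 0.93. Phgdh has 12 processed pseudogenes with at least 95% identity over 200 bases or more, none with a row of its own here, so its level is uncertain.

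Psat1, the aminotransferase of the next step, was lower in the Lncenc1-low group. Psat1 had 5151 and 3410 normalized reads in L1 and L2, against 7857 and 7328 in H1 and H2. Its group means were 4280 ± 1231 normalized reads in the Lncenc1-low and 7592 ± 374 in the Lncenc1-high group (SD, n = 2 each), so both low libraries were under both high ones while differing from each other more than the high pair did. The authors' deposited table gives Psat1 a log2 fold change of 0.83 ± 0.22 (SE; DESeq2 adjusted p = 0.0201). In a negative binomial refit of the recovered counts the call was kept without L1 (1.15, adjusted p = 0.00501). It was lost without L2 (0.56, adjusted p = 0.817), without H1 (0.78, adjusted p = 0.294) and without H2 (0.88, adjusted p = 0.139), and by limma voom (0.86, adjusted p = 0.242).

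Psph, the phosphatase that releases free serine, is the least abundant enzyme of the branch. Psph had 348 and 260 normalized reads in L1 and L2, against 410 and 487 in H1 and H2. The groups did not overlap, and the Lncenc1-low mean was 67.7% of the Lncenc1-high one. The authors' deposited table gives Psph a log2 fold change of 0.56 ± 0.29 (SE; DESeq2 adjusted p = 0.597), with a 95% interval from -0.02 to 1.14. An exon of Psph shares 452 bases on the opposite strand with Cct6a, a chaperonin subunit gene with a mean of 7827 normalized reads, and whether the counting used strand is not stated, so the level of Psph is uncertain. Cct6a had a log2 fold change of -0.05 in the authors' deposited table. Summed over the 3 genes, serine synthesis transcripts came to 7979 and 5173 normalized reads in L1 and L2 and to 10834 and 10666 in H1 and H2.

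Shmt2, the mitochondrial serine hydroxymethyltransferase, was likewise lower in the Lncenc1-low group. Shmt2 had 2021 and 1739 normalized reads in L1 and L2, against 3751 and 3050 in H1 and H2. Its group means were 1880 ± 200 and 3400 ± 496 normalized reads (SD, n = 2 each) in the Lncenc1-low and the Lncenc1-high group, and the highest low library was well under the lowest high one. The authors' deposited table gives Shmt2 a log2 fold change of 0.86 ± 0.21 (SE; DESeq2 adjusted p = 0.00568). The refit kept the call without L1 (adjusted p = 0.0182) and without H2 (adjusted p = 0.0173), and lost it without L2 (0.75, adjusted p = 0.284) and without H1 (0.70, adjusted p = 0.328), as did limma voom (0.86, adjusted p = 0.177). An exon of Shmt2 shares 32 bases with Ndufa4l2 on the opposite strand, a gene of 70.2 mean normalized reads that was itself called in the authors' deposited table, at a log2 fold change of 1.97 (DESeq2 adjusted p = 0.0337).

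Mthfd2, the mitochondrial methylenetetrahydrofolate dehydrogenase and cyclohydrolase, showed the largest Wald statistic of the 10. Mthfd2 had 632 and 564 normalized reads in L1 and L2, against 1419 and 1286 in H1 and H2, from 513, 456, 2764 and 1025 reads. The libraries of a group lay close together, with means of 598 ± 48.5 in the Lncenc1-low and 1352 ± 94.1 in the Lncenc1-high group (SD, n = 2 each). The authors' deposited table gives Mthfd2 a log2 fold change of 1.18 ± 0.22 (SE; DESeq2 adjusted p = 5.61e-05), a 2.26-fold difference. Mthfd2 was the 1 gene of the 10 that stayed called whichever library was left out, with log2 fold changes from 1.10 to 1.26 and adjusted p from 0.00138 to 0.0227. It was not called by limma voom (1.18, adjusted p = 0.102). That method called 0 of the 10 enzymes and 8 of the 14042 genes it fitted. An unadjusted limma voom p under 0.05 was reached by 6 of the 10, against 1430 of all genes fitted.

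Mthfd2l, a paralog that catalyses the same reaction, is expressed at a low level in these cells, and its libraries disagree. Mthfd2l had 142 and 38.3 normalized reads in L1 and L2, against 78.0 and 89.1 in H1 and H2. L1 was the highest and L2 the lowest of the 4, from 115 and 31 reads, so the groups overlapped. The authors' deposited table gives Mthfd2l a log2 fold change of -0.11 ± 0.60 (SE; DESeq2 adjusted p = 0.999), with a 95% interval from -1.29 to 1.07. The sign was positive without L1 (1.12) and by limma voom (0.13). Mthfd2l has 1 processed pseudogene, with 98.3% identity over 291 bases and no row of its own here, so its level is uncertain.

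Mthfd1l, the mitochondrial formyltetrahydrofolate synthetase that releases formate, differed by less than the test required. Mthfd1l had 2372 and 1301 normalized reads in L1 and L2, against 2834 and 2491 in H1 and H2. The groups did not overlap, and L2 lay far under the other 3 libraries. The authors' deposited table gives Mthfd1l a log2 fold change of 0.54 ± 0.26 (SE; DESeq2 adjusted p = 0.536), which was 0.17 without L2 and 1.03 without L1 (adjusted p = 0.081).

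Aldh1l2, the mitochondrial formyltetrahydrofolate dehydrogenase, had 99.8 and 39.5 normalized reads in L1 and L2, against 180 and 118 in H1 and H2. The groups did not overlap, and the counts behind L2 and L1 were 32 and 81 reads. The authors' deposited table gives Aldh1l2 a log2 fold change of 1.10 ± 0.52 (SE; DESeq2 adjusted p = 0.498), nearly the size of that of Mthfd2, whose error was 0.22. The value ranged from 0.58 without L2 to 1.92 without L1. An exon of Aldh1l2 shares 1056 bases on the opposite strand with D10Wsu102e, a gene of 1745 mean normalized reads with a log2 fold change of -0.33 in the authors' deposited table, so the level of Aldh1l2 is uncertain. Summed over the 5 mitochondrial genes, the levels were 5267 and 3682 normalized reads in L1 and L2 and 8262 and 7034 in H1 and H2.

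The cytosolic enzymes held no called gene. Shmt1, the cytosolic serine hydroxymethyltransferase, had 3681 and 2382 normalized reads in L1 and L2, against 2801 and 3030 in H1 and H2. The high libraries lay between the low ones. The authors' deposited table gives Shmt1 a log2 fold change of -0.06 ± 0.23 (SE; DESeq2 adjusted p = 0.999), with a 95% interval from -0.51 to 0.40. Without L1 the sign was positive (0.29). An exon of Shmt1 shares 184 bases on the opposite strand with Smcr8, so the level of Shmt1 is uncertain. Smcr8 had a mean of 2148 normalized reads and a log2 fold change of 0.32 in the authors' deposited table. Mthfd1, the cytosolic enzyme that joins all 3 folate activities in 1 protein, was the 1 gene whose level was lowest in H1 and not in L2. Mthfd1 had 4093 and 4454 normalized reads in L1 and L2, against 3572 and 3780 in H1 and H2. The authors' deposited table gives Mthfd1 a log2 fold change of -0.22 ± 0.18 (SE; DESeq2 adjusted p = 0.914), with a 95% interval from -0.58 to 0.14, and the sign stayed negative in all 7 alternative settings. The summed cytosolic level was 7773 and 6836 normalized reads in L1 and L2 and 6373 and 6809 in H1 and H2, so both low libraries lay above both high ones, L2 only just above H2.

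**Figure D2:**
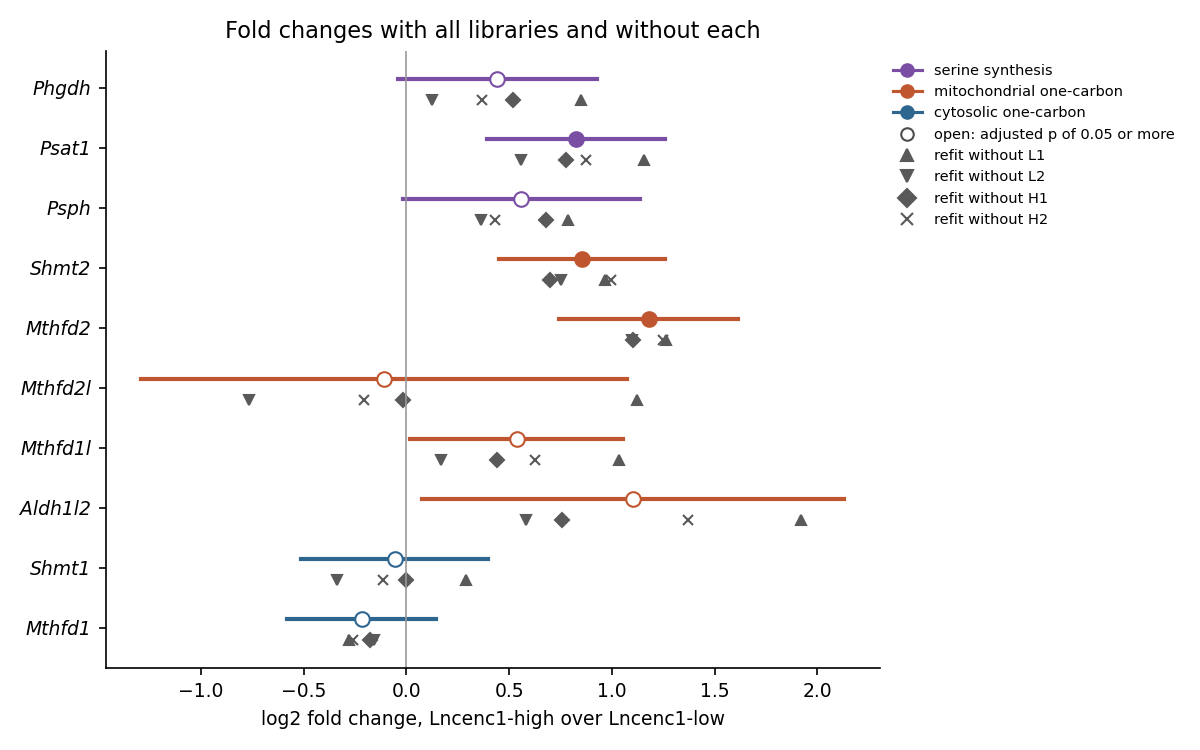
Log2 fold change (Lncenc1-high over Lncenc1-low) of each enzyme from the authors' deposited table, with its 95% interval (lines; filled circles have an adjusted p under 0.05), above the values refitted without 1 library each (grey symbols). Leaving out L2 gave the smallest or most negative value for 8 genes and leaving out L1 the largest for 8, and the values of Mthfd2 stayed between 1.10 and 1.26.

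The libraries of the Lncenc1-low group were uneven over these genes. L2 was below L1 in 9 of the 10, against 49.7% of all genes tested, and was the lowest of the 4 libraries in 9 of the 10, against 31.1% of all genes tested. The level in L2 was 86.0% of that in L1 for Shmt2 and 89.1% for Mthfd2. It was 66.2% for Psat1, 60.6% for Phgdh, 74.7% for Psph, 64.7% for Shmt1, 54.9% for Mthfd1l, 39.6% for Aldh1l2 and 27.0% for Mthfd2l. Of these 9 genes, Shmt2 and Mthfd2 had the closest pair of low libraries. For the Lncenc1-high pair the level in H2 ran from 65.4% of that in H1 for Aldh1l2 to 119% for Psph. The part of L2 in the difference between the groups was measured only by leaving it out, as given for each gene.

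Levels per length, in normalized reads per kilobase of exon, ranked Psat1 first and the pair Mthfd2l and Aldh1l2 last. In the Lncenc1-low group the mean was 1006 for Psat1, 962 for Mthfd1, 801 for Phgdh, 781 for Shmt1 and 605 for Shmt2, and each neighbouring pair among these 5 overlapped in its libraries. Mthfd1l at 414, Mthfd2 at 171, Psph at 70.1, Mthfd2l at 13.5 and Aldh1l2 at 9.29 followed, and of these Mthfd2l and Aldh1l2 overlapped. In the Lncenc1-high group the order began with Psat1 at 1785, Shmt2 at 1094, Phgdh at 1090, Mthfd1 at 828 and Shmt1 at 751, of which Shmt2 and Phgdh overlapped. Mthfd1l at 600.4, Mthfd2 at 388, Psph at 104, Aldh1l2 at 19.9 and Mthfd2l at 12.6 followed without overlap. Shmt2 thus stood below Shmt1 and Mthfd1 per length in the low group and above both in the high one. The ranks of Phgdh, Psph, Mthfd2l, Aldh1l2 and Shmt1 share the uncertainty of level given with each gene.

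In 3 pairs a mitochondrial enzyme was next set against a cytosolic or paralogous partner within a library, as a log2 ratio of normalized reads per kilobase. The Shmt2 to Shmt1 ratio was -0.54 and -0.13 in L1 and L2, against 0.74 and 0.33 in H1 and H2. Per length, cytosolic Shmt1 thus had the higher value in both low libraries and Shmt2 in both high ones. The overlap with Smcr8 leaves the level of Shmt1, and so this order, uncertain. Before division by length the order was the same, but in H2 only just (3050 normalized reads of Shmt2 against 3030 of Shmt1). The group means of the ratio were -0.34 ± 0.29 in the Lncenc1-low and 0.54 ± 0.29 in the Lncenc1-high group (SD, n = 2 each). The low minus high difference was -0.87. The Mthfd1l to Mthfd1 ratio was -0.78 and -1.77 in L1 and L2, against -0.33 and -0.60 in H1 and H2, a difference of -0.81 without overlap. The Mthfd2 to Mthfd2l ratio was 3.08 and 4.77 in L1 and L2, against 5.10 and 4.77 in H1 and H2, where L2 lay between the high libraries and the difference of -1.01 rested on L1 (-0.16 without it). With 2 libraries against 2 an exact two-sided permutation test cannot give less than p = 0.333, which the Shmt and Mthfd1 pairs reached, and the Mthfd2 pair had an exact p of 0.667. Adjusted over the 3 pairs, these exact p-values were 0.5, 0.5 and 0.667.

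**Figure D3:**
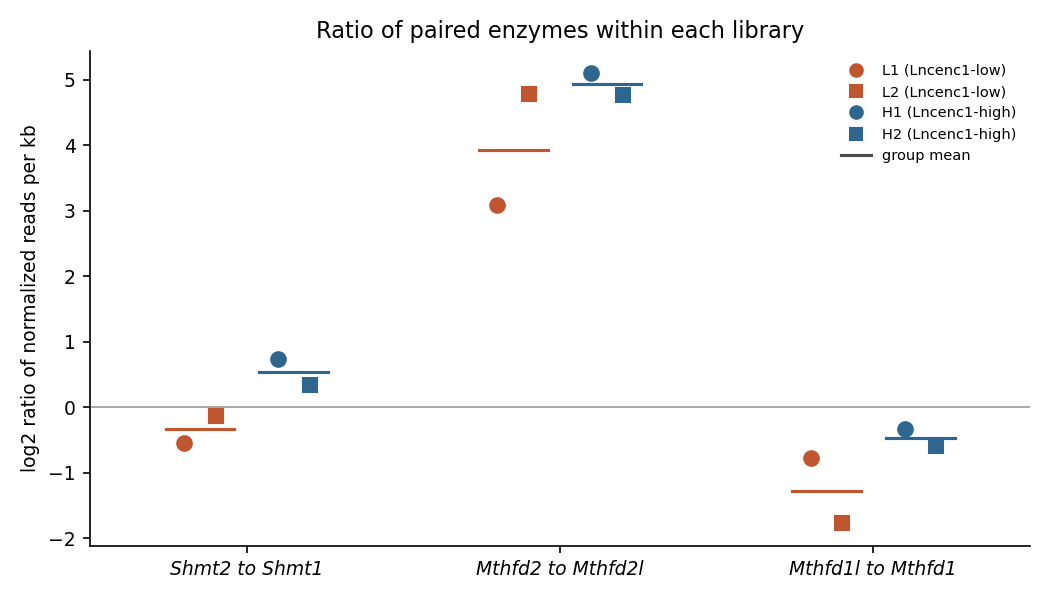
Log2 ratio of normalized reads per kilobase between 2 related enzymes within each library (y axis), with Lncenc1-low libraries in orange left of Lncenc1-high ones in blue and lines for group means (n = 2 each). The Shmt2 to Shmt1 ratio is below 0 in both low and above 0 in both high libraries, and the Mthfd2 to Mthfd2l ratio of L2 falls between those of the high libraries.

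The rest of the pathway, 46 genes in 4 lists, held no called gene. DESeq2 in the authors' deposited table called 0 of the 43 tested, where it called 1.53% of all genes tested. With so small a share, 0 calls in a list of this size say little. Limma voom also called 0, with 8 genes called in all. An unadjusted DESeq2 p under 0.05 was reached by 4 of the 43 (8.82% of all genes tested), all in the methionine and transsulfuration list. The median log2 fold change of the 43 was 0.09, against 0.55 for the 10 enzymes and -0.01 for all genes tested. In 10 of the 43 both low libraries lay below both high ones, and in 5 above, where the shares of all genes tested were 20.6% and 20.7%.

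Among 14 tested genes of folate uptake and the folate cycle the median log2 fold change was -0.01. For Folr1, a folate receptor, the authors' deposited table lists a log2 fold change of -0.66 ± 0.35 (SE; DESeq2 adjusted p = 0.588). Folr1 had 237 and 347 normalized reads in L1 and L2, against 198 and 171 in H1 and H2, a level higher in both low libraries.

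Among 7 tested genes of glycine cleavage and threonine breakdown the median was 0.04. Gldc, the decarboxylase of the glycine cleavage system, had 3437 and 1938 normalized reads in L1 and L2, against 3162 and 3860 in H1 and H2, and the groups overlapped (0.39 ± 0.26, SE, in the authors' deposited table, DESeq2 adjusted p = 0.789). Dmgdh, which frees a one-carbon unit from dimethylglycine, had 359 and 765 normalized reads in L1 and L2, against 744 and 774 in H1 and H2 (0.43 ± 0.32, SE, in the authors' deposited table, DESeq2 adjusted p = 0.848). Tdh, threonine dehydrogenase, is named here as the stem cell route to these units and not for its statistic. It had 11732 and 10118 normalized reads in L1 and L2, against 10975 and 11294 in H1 and H2, the highest mean of the 4 lists.

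Among 13 tested genes of the methionine cycle and transsulfuration the median was 0.18. Cth, cystathionine gamma-lyase, which makes cysteine, had 331 and 849 normalized reads in L1 and L2, against 1060 and 1144 in H1 and H2. Both low libraries were under the high ones, and here L1 was the lowest. The authors' deposited table gives Cth a log2 fold change of 0.90 ± 0.34 (SE; DESeq2 adjusted p = 0.231), and without L2 the refit called it (1.73, adjusted p = 0.0177). Mtrr, the reductase that keeps methionine synthase active, had 785 and 923 normalized reads in L1 and L2, against 565 and 563 in H1 and H2, with -0.60 ± 0.24 (SE) in the authors' deposited table (DESeq2 adjusted p = 0.277). Cbs (0.65 ± 0.30, SE, DESeq2 adjusted p = 0.484) and Gnmt (2.33 ± 1.18, SE, DESeq2 adjusted p = 0.557) also had an unadjusted p under 0.05 there. Both were lower in the Lncenc1-low group without overlap, Gnmt on 3, 5, 36 and 25 reads in L1, L2, H1 and H2.

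Among 9 tested genes of serine transport and use the median was 0.10. Sfxn1, the mitochondrial serine carrier, had 962 and 1107 normalized reads in L1 and L2, against 1266 and 1325 in H1 and H2, without overlap (0.32 ± 0.21, SE, in the authors' deposited table, DESeq2 adjusted p = 0.783). Slc1a4, a neutral amino acid transporter that carries serine into cells, had 283 and 526 normalized reads in L1 and L2, against 717 and 394 in H1 and H2, and the groups overlapped (0.46 ± 0.36, SE, in the authors' deposited table, DESeq2 adjusted p = 0.871).

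**Figure D4:**
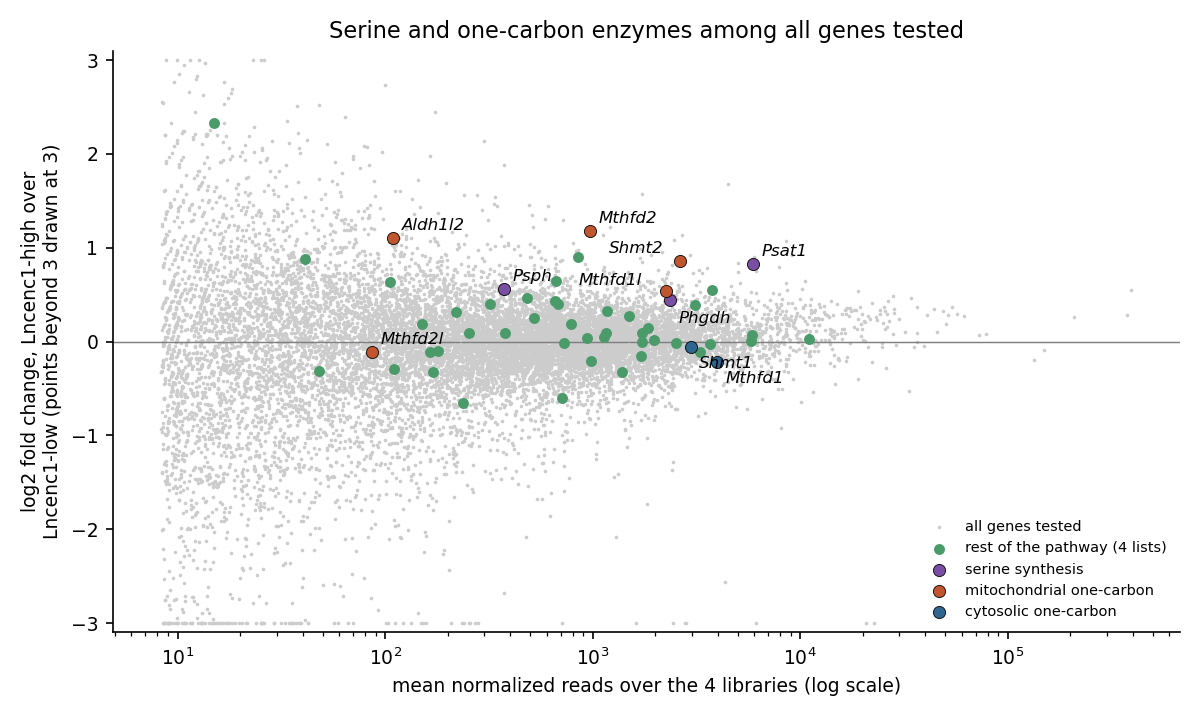
Mean normalized reads over the 4 libraries (x axis, log scale) and log2 fold change, Lncenc1-high over Lncenc1-low (y axis), of all 14070 genes tested (grey), the rest of the pathway (green) and the 10 enzymes (coloured by role), from the authors' deposited table. Mthfd2, Shmt2 and Psat1 lie above the bulk of genes of their abundance, and the cytosolic Shmt1 and Mthfd1 just below 0.

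Of the factors known to act on these genes, Atf4 had 2630 and 3441 normalized reads in L1 and L2, against 3484 and 4777 in H1 and H2. L2 and H1 were close, and L2 exceeded L1. The authors' deposited table gives Atf4 a log2 fold change of 0.44 ± 0.23 (SE; DESeq2 adjusted p = 0.562). Myc had 24.6 and 27.2 normalized reads in L1 and L2, against 85.7 and 67.7 in H1 and H2, which rest on 20, 22, 167 and 54 reads. The authors' deposited table gives Myc a log2 fold change of 1.57 ± 0.63 (SE; DESeq2 adjusted p = 0.288). The part of Atf4 or Myc in the levels of the enzymes was not tested.

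Genes with a pattern most like that of Mthfd2 were sought among the 10973 other tested genes whose mean reached 50 normalized reads, by the root mean square distance between log2 profiles centred over the 4 libraries. With 4 points, many genes of similar fold change lie close, and the distance is a description. The nearest were Ipmk, an inositol phosphate kinase, at 0.061, Sfrp1, a secreted Wnt antagonist, at 0.066, Paqr8, a membrane progestin receptor, at 0.067, Loxl2, a lysyl oxidase, at 0.074 and Pycr1, which completes proline synthesis, at 0.082. Pycr1 had 251 and 203 normalized reads in L1 and L2, against 545 and 442 in H1 and H2. The nearest of the 10 enzymes, Shmt2, lay at 0.17, Psat1 at 0.22, and the others from 0.34 for Psph to 0.79 for Mthfd2l.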

How the data were processed

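Total RNA without ribosomal RNA from 4 libraries was sequenced with a strand-specific kit, per the labels' protocols. TopHat2, HTSeq, DESeq2 1.8.2 and build mm9 are the tools and build in the submitters' processing notes; their settings and the gene annotation are not stated there.

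For every gene the authors deposited a mean normalized read count over all 4 libraries (a signal made with size factors), a log2 fold change with its log2 standard error, a Wald score, a p-value and an adjusted p-value. The authors' adjusted p under 0.05 was the main test, and DESeq2 was not rerun.

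Counts per library were recovered after the values had been seen. A deposited mean adds up 4 whole counts, each times a step fixed per library and read from recurring low values; the sign of the fold change assigns steps to groups. A set of counts was accepted if it met the mean to 15 significant digits and the refitted fold change within 0.00001, with the next set at least 10 times worse. A single solution needed to come within 0.001, or was accepted unchecked where a library had under 1 expected read. Counts resulted for 19812 genes; the other 28, with means from 5351 upwards, make up 13.96% of the summed means. Each of the 10 enzymes had a single solution. Size factors were 0.811 for L1, 0.809 for L2, 1.95 for H1 and 0.797 for H2. The steps were tested on simulated data.

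Alternatives were negative binomial Wald refits (14037 genes) that took each dispersion from the deposited error, leaving out 1 library or scaling by library totals; limma voom (limma 3.58.1, R 4.3.3) on the recovered counts; and no filter on low means. Where 1 library remained in a group, its spread was taken from the full comparison. Ensembl identifiers gave 19707 names. Exon lengths and overlaps came from GENCODE M21, another build than the authors', copies from BLAST 2.17.0 and promoters from RefSeq GRCm38.p6. Ratios and profiles used a pseudocount of 1, and 95% intervals the deposited error.

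The 10 enzymes, the other lists and the tests were chosen with earlier results of these data known. Named were all 10 enzymes, any called gene and the 2 largest Wald statistics of each other list, the 5 genes most like the enzyme with the largest statistic, Lncenc1, Atf4 and Myc. Tdh, Cbs, Gnmt and genes overlapping an enzyme were added after values were seen. One gene that the rule names is not reported here.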

Additional observations from a re-analysis of the deposited data

How the results depend on the processing

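With library totals as scaling and with no filter on low means, all 10 enzymes kept their direction and their side of the threshold, as did the 3 calls at an adjusted p under 0.1. Leaving out 1 library gave 1 to 3 called enzymes: Mthfd2 alone remained without L2 or H1, Mthfd2 and Shmt2 without H2, and all 3 without L1. It gave 50 to 199 called genes in all (L2 out: 50; H1 out: 56; H2 out: 80), against 215. Limma voom called 0 enzymes and 8 genes in all. Its unadjusted p was under 0.05 for 6 enzymes, against 1430 of the 14042 genes fitted. The rest of the pathway had 0 to 1 called genes without 1 library. Mthfd2l reversed without L1 (1.12, range -0.76 to 1.12) and by limma voom (0.13), and Shmt1 reversed without L1 (0.29, range -0.34 to 0.29). The cause was not tested; fits without 1 library also have fewer libraries. Ratios between paired enzymes kept their sign, with low minus high from -1.08 to -0.67 for Shmt2 to Shmt1, from -1.85 to -0.16 for Mthfd2 to Mthfd2l and from -1.31 to -0.32 for Mthfd1l to Mthfd1. The motif TGATGNAA was in 0 of 9 genes in either window. No paired analysis was possible because neither the deposited columns nor the recovered libraries carry a replicate number. Depth limits Mthfd2l and Aldh1l2 most, with 31 and 32 reads in L2.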
